A study of Mus musculus with 88 samples.

Results

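Mouse embryonic fibroblasts (MEFs) and embryonic stem cell (ESC) lines of a single cross were compared across autosomal genes, which sets a somatic expression program against that of naive pluripotency within 1 genetic background. The libraries were picked by their labels: 3 fibroblast libraries and 4 libraries of ESC lines derived in 2i, together 7 of the 26 RNA-seq libraries and of 88 samples in all. The study as a whole derived ESC lines in several media from a pair of mouse crosses and profiled their RNA and, by bisulfite sequencing, their DNA methylation. All 7 libraries came from F1 hybrids of 129X1/SvJ, a laboratory strain, and MSM/Ms, a wild-derived Japanese strain. The labels name no engineered allele. The fibroblasts were MEF lines 2 and 4 at passage 1, and a "2i MEF" of line 15, XX, whose label gives 5 passages plus 1. The ESC lines were 2 and 15, both XX, and 20 and 23, both XY, all at passage 3 in 2i, a medium that combines an inhibitor of the kinase MEK with an inhibitor of GSK3. Each ESC library was 1 line. Line 15 gave 1 library to each side, and the labels do not say how fibroblasts were obtained from it. The labels disagree on the sex of both MEF lines: line 2 is XX in its title and XY in its description, and line 4 is XY in its title and XX in its description. Sex was therefore not compared among the fibroblasts, and X-linked genes were left out. Passage differed between the groups and cannot be told apart from cell type. The labels do not name separate animals, so the p-values measure the spread between these libraries.

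Fibroblasts are connective tissue cells that secrete collagens and other matrix proteins, pull on that matrix through actin and myosin fibres, and keep epithelial genes silent. Naive ESCs correspond to the epiblast before implantation and depend on a circuit of transcription factors centred on Oct4 (encoded by Pou5f1), Sox2 and Nanog. In 2i, the blocked MEK pathway and the raised beta-catenin activity hold these cells in that state and lower their DNA methylation.

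Expression was deposited as RPKM, read density scaled by gene length and library size, so levels of different genes can be set side by side. Values below are RPKM in MEF line 2, MEF line 4 and the 2i MEF, in that order, and then in ESC lines 2, 15, 20 and 23. Differences are means of log2(RPKM + 1), fibroblast minus ESC, with their standard error (SE). This scale understates the change of genes with low values. Adjusted p-values are from limma with the Benjamini-Hochberg method over the 12629 autosomal genes that reached 1 RPKM in at least 2 of the 7 libraries, and genes under 0.05 are called. A gene that passed this filter through only 1 group could hardly be called higher in the other.

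The cell types on the labels were checked on their markers. Col1a1, which encodes the first chain of collagen I, read 2177, 1741 and 4799 RPKM in the fibroblasts, against 1.13, 1.61, 16.7 and 1.66 RPKM in the ESCs. Pou5f1 read 0, 0.0337 and 0.244 RPKM in the fibroblasts, against 1571, 1806, 1577 and 1816 RPKM in the ESCs, and Nanog read 0.173, 0.174 and 0.246 RPKM in the fibroblasts, against 677, 563, 374 and 465 RPKM in the ESCs. The groups lay far apart for all 3 genes. Of 10 fibroblast markers, all 10 reached 1 RPKM in each fibroblast library, against 3 to 6 of them in the ESCs, and their summed level was 5585 to 16336 RPKM in the fibroblasts, against 7.01 to 37.5 RPKM in the ESCs. Of 8 naive ESC markers, only Klf4 reached 1 RPKM in any fibroblast library, while all 8 did so in every ESC library.

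There were 2 libraries that stood apart from the rest of their group. ESC line 20 held more transcripts of fibroblast genes than the other 3 lines: Col1a2 (collagen I, second chain) read 9.31 RPKM there, and 0.487, 0.329 and 0.384 RPKM in lines 2, 15 and 23. Over the 64 genes called at least 6 log2 units higher in fibroblasts, the median level was 0.663% of the fibroblast mean in line 20, and 0.0635%, 0.0538% and 0.0435% in lines 2, 15 and 23. Small as they are, these amounts set the ESC level of the genes with the largest differences, and several of these are therefore given with and without line 20. Their part in the results beyond that was not tested. MEF line 2 held macrophage transcripts: Lyz2 (lysozyme) read 148, 13.5 and 4.99 RPKM in the fibroblasts and was listed at 0 in all 4 ESC lines, and Tyrobp, a signalling adaptor of myeloid cells, read 33.3, 2.57 and 1.02 RPKM in the fibroblasts, against 0, 0.134, 0 and 0 RPKM in the ESCs. The difference of Tyrobp was 2.60, and 1.38 without MEF line 2. Over 9 macrophage and blood markers the summed level was 9.2 to 224 RPKM in the fibroblasts, with MEF line 2 highest, against 2.22 to 7.08 RPKM in the ESCs; Ptprc, Hbb-bs and Hba-a1 were among the markers under 1 RPKM in all 7 libraries.

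**Figure D1:**
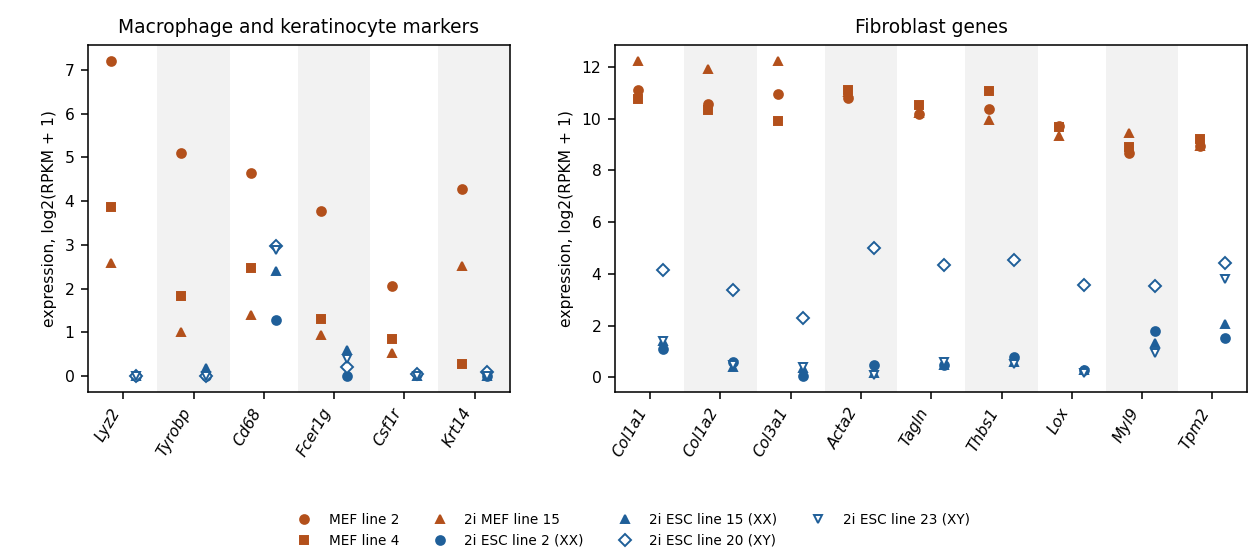
Expression as log2(RPKM + 1) of 6 macrophage or keratinocyte markers (left panel) and of 9 fibroblast genes (right panel), 1 point per library, fibroblasts in orange and 2i ESCs in blue. MEF line 2 was highest for each of the 6 markers on the left, and ESC line 20 was highest of the 4 ESC lines for each of the 9 genes on the right.

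Per library, the RPKM values summed to 624274 to 641479 in the fibroblasts, against 750032 to 802360 in the ESCs, and 11234 to 11546 genes in the fibroblasts, against 11461 to 11904 genes in the ESCs, reached 1 RPKM. The steps between the lowest values put the relative depth of the libraries at 0.969 to 1.88 times that of ESC line 2, with MEF line 4 deepest; read totals were not given in the sources used here. Across the tested genes, Pearson's r of the log2 values was 0.965 to 0.985 among the fibroblasts and 0.961 to 0.986 among the ESCs, against 0.662 to 0.69 between the groups, as a description of libraries that share their genes.

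Most autosomal genes differed between the cell types. Of the 12629 tested, 9097 (72%) were called, with 3896 (30.8%) higher and 5201 (41.2%) lower in fibroblasts. A difference of at least 2 log2 units was found for 1160 called genes (9.19%) that were higher and 1086 (8.6%) that were lower in fibroblasts. The fibroblast and ESC libraries did not overlap in 9104 genes (72.1%). Groups said below not to overlap for a named gene are read beside this share. Without MEF line 2 and ESC line 20 together, an alternative added after these 2 libraries had been seen to stand apart, 3089 genes were higher and 4432 were lower. The median difference over all tested genes was -0.22, -0.13 after quantile normalization and -0.14 after scaling to 1 median, so small differences near this offset are read relative to it. In these bulk samples, fewer cells of a type and less RNA per cell cannot be told apart.

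**Figure D2:**
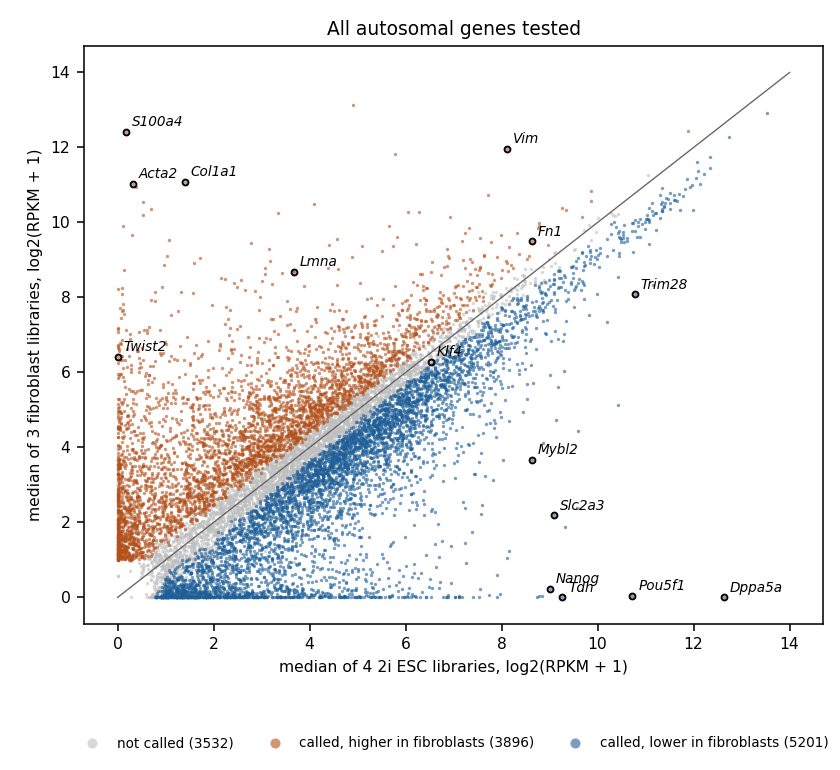
Median log2(RPKM + 1) of the 3 fibroblast libraries (vertical axis) against that of the 4 2i ESC libraries (horizontal axis) for the 12629 autosomal genes tested, coloured by call. Of the coloured genes, 3896 were called higher and 5201 lower in fibroblasts, with Col1a1, Acta2 and S100a4 at the upper left and Dppa5a, Pou5f1 and Nanog along the lower edge.

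Matrix proteins had the highest median difference of the gene lists. Of 34 genes for fibrillar collagens and other matrix proteins, 33 rose (97.1%) and 0 fell in fibroblasts, beside 30.8% and 41.2% of all tested genes. All 34 were tested, and their median difference was 6.21, beside -0.22 for all tested genes. Col3a1, which encodes collagen III, read 1986, 949 and 4850.1 RPKM in the fibroblasts, against 0.0275, 0.273, 3.87 and 0.33 RPKM in the ESCs, a difference of 10.26 (SE 0.63, adjusted p = 1.4e-06). Postn, for periostin, a protein that binds collagen and integrins, read 949, 811 and 2116 RPKM in the fibroblasts, against 0.174, 0, 1.1 and 0 RPKM in the ESCs (9.88, SE 0.37, adjusted p = 9.9e-08). The 2i MEF was the highest fibroblast library for both genes and for Col1a1 and Col1a2, and no fibroblast library overlapped an ESC line. The differences of Col1a2 and Col1a1 were 9.74 (SE 0.72, adjusted p = 3.9e-06) and 9.35 (SE 0.70, adjusted p = 4.2e-06), and 10.46 and 10.07 without ESC line 20. That of Col3a1 was 10.76 without this line. Fibronectin (Fn1), which cells bind through integrins, was abundant on both sides: it read 721, 703 and 1563 RPKM in the fibroblasts, against 331, 305, 622 and 455 RPKM in the ESCs, a called difference of 1.17 (SE 0.32, adjusted p = 0.0098). Fbln1, for the matrix glycoprotein fibulin 1, was the only 1 of the 34 not called, at 50.3, 30.7 and 42.7 RPKM in the fibroblasts, against 27.4, 34.1, 39.2 and 28 RPKM in the ESCs, and was called without MEF line 4 (0.53, adjusted p = 0.039).

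Of 10 genes of the basement membrane, the sheet that underlies epithelia, 4 rose and 5 fell in fibroblasts, shares of 40% and 50% beside 30.8% and 41.2% of all tested genes. Both collagen IV chains of the common network were higher in fibroblasts, with Col4a1 at 495, 539 and 562 RPKM in the fibroblasts, against 53.4, 31.2, 25.7 and 23.9 RPKM in the ESCs (4.02, SE 0.25, adjusted p = 1.4e-06). The laminin alpha 5 chain, Lama5, went the other way, at 10.5, 2.31 and 8.82 RPKM in the fibroblasts, against 150.2, 168, 278 and 180.2 RPKM in the ESCs (-4.72, SE 0.41, adjusted p = 9.6e-06), and Lama1, Agrn and Nid2 also fell, with differences of -3.02, -2.91 and -1.94. In each of these 4 genes every fibroblast library lay below every ESC line.

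Enzymes that fold, cut and cross-link collagen were higher throughout: all 24 of 24 tested genes rose in fibroblasts, beside 30.8% of all tested genes. Their median difference was 4.25. Lox, the lysyl oxidase that cross-links collagen and elastin, read 834, 815 and 647 RPKM in the fibroblasts, against 0.224, 0.229, 11 and 0.125 RPKM in the ESCs, and ESC line 20 alone was above 1 RPKM among the ESCs. Its difference was 8.49 (SE 0.75, adjusted p = 1.1e-05), and 9.32 without that line. Timp2, an inhibitor of matrix metalloproteinases, Ctsk, the collagen-degrading protease cathepsin K, and Loxl1, a relative of Lox, rose by 7.32, 6.87 and 6.42. Serpinh1, the collagen chaperone Hsp47, was also present in ESCs: it read 1231, 1084 and 1999.9 RPKM in the fibroblasts, against 87.3, 77.4, 76.9 and 50.5 RPKM in the ESCs (4.26, SE 0.24, adjusted p = 8.9e-07). Fap, a fibroblast surface protease, read 5.1, 2.11 and 17.9 RPKM in the fibroblasts and was listed at 0 in all 4 ESC lines.

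Mesenchymal transcription factors were tested for 37 of 43 autosomal ones in the list. Of the 37, 30 rose (81.1%) and 1 fell (2.7%), beside 30.8% and 41.2% of all tested genes. Their median difference was 1.62, and 2.48 over the 29 genes still tested without the 2i MEF. Prrx1, a homeobox factor of limb and craniofacial mesenchyme, read 173, 187 and 126 RPKM in the fibroblasts, against 0.0426, 0.043, 0.559 and 0.0344 RPKM in the ESCs (7.12, SE 0.22, adjusted p = 3.9e-08). Twist2, a basic helix-loop-helix repressor of epithelial genes, read 84.9, 97.2 and 38.9 RPKM in the fibroblasts and was listed at 0 in all 4 ESC lines. Its paralog Twist1 was detected on both sides, at 35.6, 37.7 and 29.9 RPKM in the fibroblasts, against 1.2, 2.82, 1.4 and 1.07 RPKM in the ESCs. The groups did not overlap for any of the 3 genes. Among other repressors of epithelial genes, Snai2 rose by 4.57 and Zeb2 by 4.66, while Zeb1 differed less: it read 13.8, 9.4 and 15.5 RPKM in the fibroblasts, against 7.49, 5.78, 5.78 and 5.8 RPKM in the ESCs (0.92, SE 0.20, adjusted p = 0.0026). Klf9, a Krüppel-like factor induced by glucocorticoid and thyroid hormones, was the 1 factor that fell; it fell by 1.52 (SE 0.17, adjusted p = 4.5e-05).

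Surface receptors rose with them. Of 31 mesenchymal receptors and adhesion molecules, 26 rose (83.9%) and 0 fell, beside 30.8% and 41.2% of all tested genes. The median difference of the list was 2.80. Cdh11, the cadherin of mesenchymal cells, read 201, 225 and 277 RPKM in the fibroblasts, against 0.055, 0.0728, 0.565 and 0.0947 RPKM in the ESCs (7.63, SE 0.20, adjusted p = 1.7e-08). The receptor tyrosine kinases Axl, Pdgfrb and Pdgfra rose by 7.08, 6.01 and 4.93, and Cd44, a hyaluronan receptor, by 6.34. Thy1, a surface glycoprotein used to mark fibroblasts, read 245, 377 and 308 RPKM in the fibroblasts, against 5.09, 10.5, 4.16 and 3.37 RPKM in the ESCs (5.60, SE 0.31, adjusted p = 8.2e-07). Eng, a TGF-beta co-receptor, was not called, at 22.6, 48.4 and 17.6 RPKM in the fibroblasts, against 38.9, 33.2, 29.8 and 37.9 RPKM in the ESCs; without MEF line 4, its highest fibroblast library, it was called lower in fibroblasts (-0.77, adjusted p = 0.0062).

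Actin, myosin and the proteins that organise stress fibres followed the same direction. Of 26 tested genes of this list, 25 rose (96.2%) and 0 fell, beside 30.8% and 41.2% of all tested genes. The median difference of the list was 2.77. Many such genes are known targets of serum response factor (SRF), which binds a 10-base site called the CArG box. In the 250 bases before the start of the gene, a CArG box on either strand was found in 4 of the 21 list members with a promoter in the RefSeq table (19%; Cnn2, Myl9, Srf and Vcl), and in 1.05% of the promoters of 9561 tested genes. Sequence before the starts of Myl9 and Vcl is shown because it holds this box, in capitals, written 5′ to 3′ along the gene (RefSeq, GRCm38.p6; chr2:156775258-156775357, plus strand, and chr14:20929148-20929225, plus strand). A match describes these letters and was not tested for binding.
Myl9: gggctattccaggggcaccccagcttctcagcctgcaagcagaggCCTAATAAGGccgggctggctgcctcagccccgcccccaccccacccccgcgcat
Vcl: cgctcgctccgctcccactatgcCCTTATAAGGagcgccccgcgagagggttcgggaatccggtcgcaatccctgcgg

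Myl9, a regulatory light chain of smooth muscle myosin, read 403, 479.9 and 702 RPKM in the fibroblasts, against 2.5, 1.53, 10.5 and 0.91 RPKM in the ESCs (7.11, SE 0.54, adjusted p = 4.5e-06). Vcl, for vinculin, which ties actin to focal adhesions, read 94.2, 95.8 and 93.5 RPKM in the fibroblasts, against 16.9, 10.2, 12.9 and 19 RPKM in the ESCs (2.63, SE 0.20, adjusted p = 4.5e-06). Both genes were higher in every fibroblast library than in any ESC line, with a wider gap for Myl9, and ESC line 20 had the highest ESC value of Myl9. Acta2, for smooth muscle alpha actin, read 1795, 2204 and 2079.8 RPKM in the fibroblasts, against 0.373, 0.123, 30.8 and 0.0481 RPKM in the ESCs. Its difference was 9.56 (SE 1.06, adjusted p = 4.5e-05), and 10.75 without ESC line 20, which held nearly all of the ESC signal. Tagln, for the actin-bundling protein transgelin, rose by 8.84, and by 9.80 without that line. Srf itself differed little, at 20.5, 22.3 and 18.1 RPKM in the fibroblasts, against 14.1, 6.41, 9.27 and 10.8 RPKM in the ESCs (0.98, SE 0.23, adjusted p = 0.0046). Cnn3, a calponin, was the list's only tested gene not called, at 582, 623 and 692 RPKM in the fibroblasts, against 597, 833, 764 and 707 RPKM in the ESCs.

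**Figure D3:**
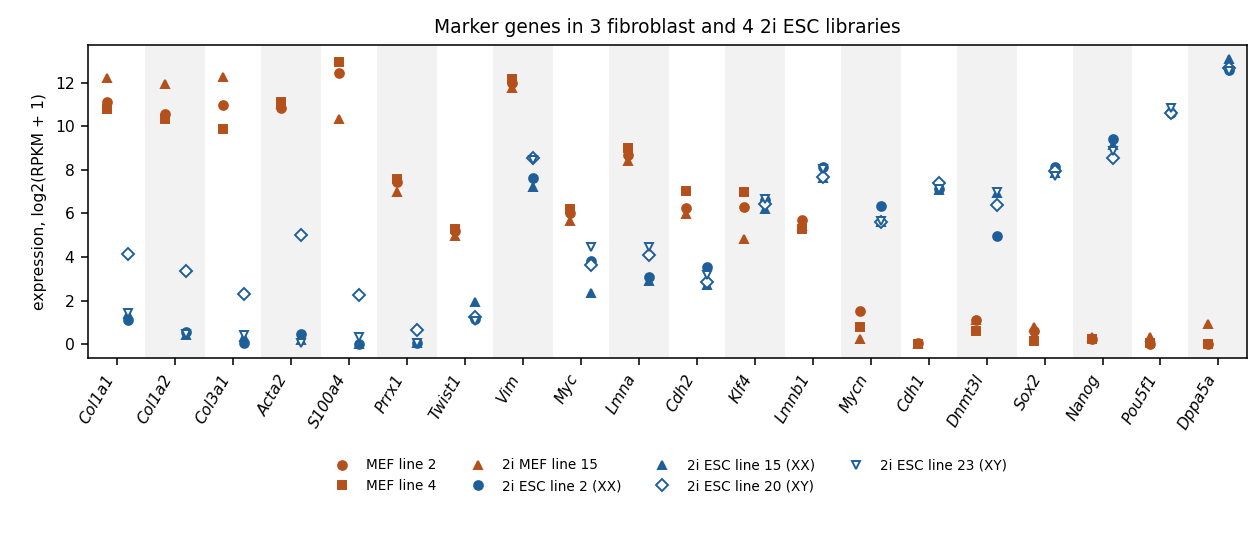
Expression as log2(RPKM + 1) of 20 genes, 1 point per library, fibroblasts in orange to the left and 2i ESCs in blue to the right of each gene name; shapes mark the lines. The groups did not overlap for any of these picked genes but Klf4, beside 72.1% of all tested genes without overlap. ESC line 20 stood above the other ESC lines for Col1a1, Col1a2, Col3a1, Acta2 and S100a4.

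The nuclear lamina, the filament mesh under the nuclear envelope, differed in its makeup. Lmna, which encodes lamins A and C, read 412, 509 and 341 RPKM in the fibroblasts, against 7.43, 6.53, 16.1 and 21.2 RPKM in the ESCs (5.06, SE 0.37, adjusted p = 3.6e-06). Lmnb1, which encodes lamin B1, read 50.9, 38.3 and 42.3 RPKM in the fibroblasts, against 278, 199, 199.6 and 261 RPKM in the ESCs (-2.38, SE 0.16, adjusted p = 2.6e-06), and Lbr, the lamin B receptor that tethers heterochromatin, also fell, at 27.1, 18.3 and 23.2 RPKM in the fibroblasts, against 97.8, 107, 88.1 and 81.9 RPKM in the ESCs. Lmna was thus above Lmnb1 in all 3 fibroblast libraries and below it in all 4 ESC lines. Vim, the intermediate filament vimentin, read 4016, 4642 and 3431 RPKM in the fibroblasts, against 197, 148, 370.2 and 353 RPKM in the ESCs (4.00, SE 0.31, adjusted p = 4.8e-06). Of the 14 tested genes of intermediate filaments and lamina, 6 rose (42.9%) and 4 fell (28.6%), beside 30.8% and 41.2% of all tested genes. Their median difference of 0.98 was 0.33 without the 2i MEF and 1.85 without MEF line 4.

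Calcium-binding S100 proteins, annexins and galectins held the widest single rise. Of 20 genes of this list, 18 rose (90%) and 1 fell (5%), beside 30.8% and 41.2% of all tested genes. The median difference of the list was 4.69. S100a4, also known as fibroblast-specific protein, read 5496, 7853 and 1299 RPKM in the fibroblasts, against 0, 0, 3.78 and 0.256 RPKM in the ESCs (11.26, SE 0.70, adjusted p = 1.5e-06), the widest rise of all called genes whose groups did not overlap. The 2i MEF was well below both MEF lines for this gene. Without ESC line 20 the difference of S100a4 was 11.79. S100a6 was the most abundant autosomal gene of the fibroblasts by median, at 8955, 10010.3 and 4801 RPKM in the fibroblasts, against 33.7, 24.3, 48.3 and 7.65 RPKM in the ESCs. Lgals1, for galectin 1, read 4119, 3613 and 3528 RPKM in the fibroblasts, against 26.1, 34.4, 88.8 and 73.7 RPKM in the ESCs, and Cav1, the scaffold of caveolae, rose by 7.90. The 1 gene that fell was Cd9, a tetraspanin of the ESC surface, at 146, 179 and 129 RPKM in the fibroblasts, against 359, 478, 353 and 337 RPKM in the ESCs (-1.33, SE 0.16, adjusted p = 7.1e-05).

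Of 24 genes of the TGF-beta, activin and YAP response list, 20 rose (83.3%) and 1 fell (4.17%), beside 30.8% and 41.2% of all tested genes. The median difference of the list was 3.92. Among ligands, Tgfb3 read 39.5, 60.7 and 79.2 RPKM in the fibroblasts, against 0.0231, 0.0459, 0.846 and 0.0478 RPKM in the ESCs, and Inhba, the activin A subunit, 79.1, 115 and 38.6 RPKM in the fibroblasts, against 0, 0, 1.33 and 0.0572 RPKM in the ESCs. Both were near 0 in the ESCs except line 20. Grem1, a BMP antagonist, rose by 6.52. The receptor gene Tgfbr2 rose by 5.11, while Tgfbr1 was not called, at 13.2, 12.3 and 9.66 RPKM in the fibroblasts, against 11.4, 8.15, 8.32 and 8.67 RPKM in the ESCs. Ajuba, a LIM protein that restrains the Hippo kinases, was the 1 gene that fell; it fell by 1.13.

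Of 22 tested Wnt pathway genes, 8 rose (36.4%) and 7 fell (31.8%), beside 30.8% and 41.2% of all tested genes. Their median difference of 0.16 was -0.04 without MEF line 2 and 0.35 without MEF line 4. Ligands, receptors and secreted inhibitors were among those that rose: Wnt5a, a ligand of the noncanonical branch, read 36.4, 58.2 and 27.9 RPKM in the fibroblasts, against 0.0427, 0.0283, 0.328 and 0.0661 RPKM in the ESCs (5.17, SE 0.25, adjusted p = 4.1e-07), and the receptors Fzd2 and Fzd1 and the antagonist Dkk2 rose by 3.82, 3.19 and 3.98. Those that fell included genes known as beta-catenin targets or partners, on which a GSK3 inhibitor in the ESC medium acts. Axin2 read 1.26, 0.49 and 1.5 RPKM in the fibroblasts, against 12.8, 5.15, 25.4 and 17.8 RPKM in the ESCs, Sp5 fell by 2.94, and the DNA-binding partners Tcf7 and Lef1 fell, with differences of -4.06 and -2.24. ESC line 15 was the lowest ESC line for Axin2 and for Sp5, and still lay above every fibroblast library. The 2i medium went with the ESCs throughout, so the effects of medium and cell type cannot be told apart.

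The MEK inhibitor acts on the ERK pathway, which induces the immediate early genes. Of 24 such genes, 18 rose (75%) and 2 fell (8.33%) in fibroblasts, beside 30.8% and 41.2% of all tested genes. The median difference of the list was 2.29. Egr1, an early target of ERK, read 23.3, 23.5 and 33.6 RPKM in the fibroblasts, against 0.156, 0.0859, 0.025 and 0.0268 RPKM in the ESCs (4.68, SE 0.19, adjusted p = 1.5e-07). The AP-1 subunits Fosl2 and Fosl1 and the ERK phosphatase Dusp4 rose by 4.67, 3.88 and 4.28. Etv5, an ETS factor that is also active in naive ESCs, fell: it read 15.7, 18.1 and 7.79 RPKM in the fibroblasts, against 156, 105, 162 and 165 RPKM in the ESCs (-3.37, SE 0.28, adjusted p = 7.0e-06). Its relative Etv4 went the other way, by 2.24 (SE 0.60, adjusted p = 0.0085), with ESC line 23 at 9.39 RPKM, above the 2i MEF at 8.25 RPKM. Here too, the inhibitor and the cell type cannot be told apart. Without MEF line 2 and ESC line 20, Etv4 was no longer called (2.18, adjusted p = 0.052).

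Immune genes were mostly higher in fibroblasts. Of 24 tested cytokine and chemokine genes, 21 rose (87.5%) and 0 fell, beside 30.8% and 41.2% of all tested genes. The median difference of the list was 2.99. Ccl2, a chemokine that draws monocytes, read 299.6, 448 and 37.2 RPKM in the fibroblasts, against 0, 0, 0.811 and 0 RPKM in the ESCs (7.22, SE 0.73, adjusted p = 2.5e-05), and Csf1, the growth factor of macrophages, read 243, 279.5 and 89.8 RPKM in the fibroblasts, against 0.379, 0.856, 2.24 and 0.0801 RPKM in the ESCs. For both genes the 2i MEF was the lowest fibroblast library and MEF line 4 was the highest. The part of macrophage transcripts in these values was not tested. Of 33 tested genes of innate sensing and the interferon response, 19 rose (57.6%) and 8 fell (24.2%), beside 30.8% and 41.2% of all tested genes. Tmem173, the STING adaptor of DNA sensing, read 27.5, 23.3 and 27.9 RPKM in the fibroblasts, against 0.28, 0.603, 0.337 and 0.724 RPKM in the ESCs (4.20, SE 0.18, adjusted p = 2.1e-07). Ifitm1, a membrane protein known from interferon-treated cells, read 8.38, 16.4 and 6.99 RPKM in the fibroblasts, against 197, 180.0, 206 and 229 RPKM in the ESCs (-4.22, SE 0.25, adjusted p = 1.0e-06), whereas its neighbour Ifitm3 rose by 2.29. Oas1a and Bst2, which are also known as interferon-induced genes, fell, with differences of -2.96 and -2.25.

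Genes of antigen presentation were higher too. Of 13 tested genes of MHC class I and peptide processing, 12 rose (92.3%) and 0 fell, beside 30.8% and 41.2% of all tested genes. B2m, the light chain of class I molecules, read 434, 426 and 538 RPKM in the fibroblasts, against 15.4, 29.7, 27.5 and 18.6 RPKM in the ESCs (4.33, SE 0.22, adjusted p = 5.5e-07). The peptide transporter subunit Tap2 read 16.4, 13.2 and 13 RPKM in the fibroblasts, against 0.49, 0.975, 0.882 and 0.527 RPKM in the ESCs (3.15, SE 0.19, adjusted p = 1.2e-06). Class I genes are alike in sequence and differ between strains, so reads may be split among them. Psmb8, a subunit of the immunoproteasome, was listed at 0 in all 4 ESC lines and read 4.8, 2.86 and 3.22 RPKM in the fibroblasts.

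Most cell cycle genes fell. Of 30 genes of the G1 phase, DNA replication and mitosis, 2 rose (6.67%) and 24 fell (80%), beside 30.8% and 41.2% of all tested genes. The median difference of the list was -1.80. Mcm3, a subunit of the replicative helicase, read 47.1, 34.1 and 37.4 RPKM in the fibroblasts, against 284, 244, 302 and 252 RPKM in the ESCs (-2.75, SE 0.14, adjusted p = 5.1e-07), and Top2a, the topoisomerase of dividing cells, fell by 2.48. The 2 that rose each had a relative that fell. Myc read 63.8, 72.2 and 48.9 RPKM in the fibroblasts, against 12.8, 4.09, 11.2 and 20.9 RPKM in the ESCs (2.40, SE 0.42, adjusted p = 7.4e-04), while Mycn read 1.84, 0.712 and 0.175 RPKM in the fibroblasts, against 80.1, 48.3, 47.7 and 49.9 RPKM in the ESCs (-4.97, SE 0.31, adjusted p = 1.5e-06). Myc was the higher of the pair in every fibroblast library, and Mycn in every ESC line. Ccnd2, for cyclin D2, rose by 4.51 and Ccnd3, for cyclin D3, fell by 1.30. Among 21 genes that brake the cycle or respond to p53, 10 rose (47.6%) and 4 fell (19%), beside 30.8% and 41.2% of all tested genes. Cdkn2b, an inhibitor of CDK4 and CDK6, rose by 4.22. The neighbouring locus Cdkn2a was not called, at 48.9, 47.2 and 88.6 RPKM in the fibroblasts, against 56.7, 56.9, 44.4 and 23.8 RPKM in the ESCs.

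**Figure D4:**
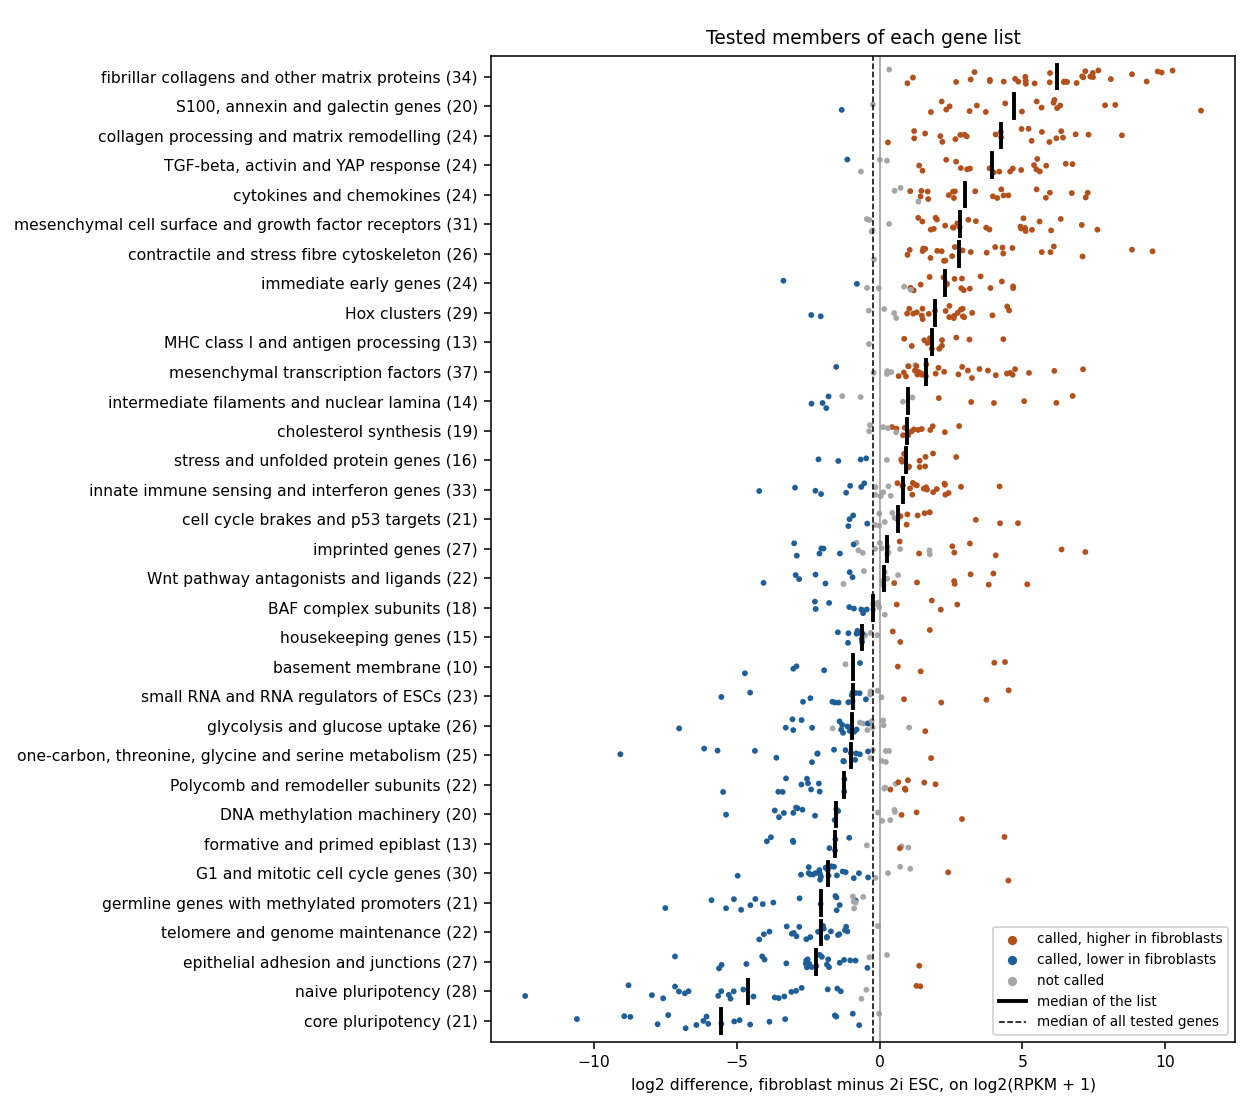
Log2 difference, fibroblast minus 2i ESC, of each tested member of 33 gene lists, 1 dot per gene, with the number tested in brackets; black bars mark list medians and the dashed line the median of all tested genes. List medians ran from 6.21 for matrix proteins to -5.54 for core pluripotency genes.

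Core pluripotency genes had the lowest median difference of the gene lists. Of 21 autosomal genes, 20 fell (95.2%) in fibroblasts and 0 rose, beside 41.2% and 30.8% of all tested genes. The median difference of the list was -5.54 (-6.00 without 2 genes listed at 0 in every fibroblast library). Pou5f1, whose values are given above, fell by 10.60 (SE 0.13, adjusted p = 3.9e-10), Nanog fell by 8.73 (SE 0.20, adjusted p = 1.0e-08), and Sox2, at 0.503, 0.105 and 0.733 RPKM in the fibroblasts, against 281, 229, 249 and 206 RPKM in the ESCs, fell by 7.40 (SE 0.19, adjusted p = 1.6e-08). The level of Pou5f1 varied by less among the 4 ESC lines than that of Nanog, which was lowest in line 20. Tdgf1, a co-receptor for Nodal, and L1td1, an RNA-binding protein of ESCs, fell, with differences of -8.94 and -7.78. Lin28a, which blocks maturation of let-7 microRNAs, and Dppa2 were listed at 0 in all 3 fibroblast libraries and read 35, 24.4, 64.8 and 77.2 RPKM and 35.8, 28.8, 28.6 and 40.8 RPKM in the ESCs. The 1 gene not called was Trp53bp1, a DNA repair factor, at 25.5, 16.3 and 20.1 RPKM in the fibroblasts, against 17.8, 15, 22.8 and 29.1 RPKM in the ESCs.

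Upstream of Nanog and of the naive gene Zfp42 lie sites that the pluripotency factors are known to bind. The composite site of Oct4 and Sox2 was searched as CATTGT and ATGCAAA separated by 1 base, on either strand, in the 250 bases before the gene start; of 9561 promoters of tested genes, 1 held it (0.0105%), that of Nanog. The octamer ATGCAAAT, the full site of Oct4 alone, was found in 1.33% of them, Zfp42 included. Of the core pluripotency genes, 1 of 15 with a promoter among those searched held the composite site and 0 held the octamer. Of the naive genes, 0 of 19 held the composite site and 1 held the octamer. The stretches are shown because both genes were among the 15 that fell most; capitals mark the match, which in both lies on the opposite strand (RefSeq, GRCm38.p6; chr6:122707369-122707472, plus strand, and chr8:43307143-43307240, minus strand).
Nanog: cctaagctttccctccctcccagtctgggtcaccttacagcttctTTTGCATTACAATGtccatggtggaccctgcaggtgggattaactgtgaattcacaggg
Zfp42: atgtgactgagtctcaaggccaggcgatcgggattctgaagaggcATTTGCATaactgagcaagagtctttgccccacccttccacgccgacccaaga

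Genes of the naive state mostly fell as well: of 28, 24 fell (85.7%) and 2 rose (7.14%), beside 41.2% and 30.8% of all tested genes. The median difference of these naive genes was -4.60 (-3.60 without 4 genes listed at 0 in every fibroblast library). Dppa5a, an RNA-binding protein of the early embryo, was the most abundant of them, at 0, 0 and 0.888 RPKM in the fibroblasts, against 6064, 8642, 6587 and 5966 RPKM in the ESCs (-12.41, SE 0.24, adjusted p = 6.2e-09). Zfp42, the zinc finger protein Rex1, read 0.0278, 0 and 0.0773 RPKM in the fibroblasts, against 451, 388, 431 and 584 RPKM in the ESCs (-8.79, SE 0.16, adjusted p = 4.6e-09), and Esrrb, a nuclear receptor that sustains the naive circuit, 0.023, 0.0404 and 0.108 RPKM in the fibroblasts, against 222, 139.8, 204 and 259 RPKM in the ESCs. No fibroblast library came near an ESC line for these 3 genes. There were 4 members that departed from this. Klf4, a Krüppel-like factor used for reprogramming, was not called: it read 76.9, 125 and 26.9 RPKM in the fibroblasts, against 96.7, 72.6, 86.3 and 101 RPKM in the ESCs, a difference of -0.46 (SE 0.42, adjusted p = 0.34). MEF line 4 was above every ESC line and the 2i MEF below every ESC line. Without MEF line 4 it was called (-0.94, adjusted p = 0.047). Its relatives Klf2 and Klf5 fell, with differences of -3.34 and -3.54. Spp1, for osteopontin, was not called either, at 269, 34.4 and 1147 RPKM in the fibroblasts, against 297, 434, 395 and 275 RPKM in the ESCs, and was called without the 2i MEF (-1.82, adjusted p = 0.042). Stat3 and Il6st, which carry signals from LIF and related cytokines in many cell types, rose by 1.29 and 1.43, while the LIF receptor gene Lifr fell by 1.36.

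Of 13 tested genes of the formative or primed epiblast, 8 fell (61.5%) and 2 rose (15.4%), beside 41.2% and 30.8% of all tested genes. Zic2, a zinc finger factor of the epiblast, read 0.0992, 0.0349 and 0.801 RPKM in the fibroblasts, against 20.7, 14.7, 24.8 and 15.7 RPKM in the ESCs (-3.95, SE 0.26, adjusted p = 2.1e-06). Otx2, which drives exit from the naive state, was listed at 0 in all 3 fibroblast libraries and read 29.1, 48.1, 6.82 and 2.32 RPKM in the ESCs, higher in both XX than in both XY lines. Sox4, which is active in many mesenchymal tissues, rose by 4.37. Genes of the cleavage-stage-like state of rare ESCs, 12 of which were in the table, did not reach the threshold for testing; their highest value was 0.48 RPKM.

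DNA methylation genes were lower on balance: of 20, 12 fell (60%) and 3 rose (15%), beside 41.2% and 30.8% of all tested genes. Dnmt3l, the cofactor of new methylation in germ cells and early embryos, read 1.13, 0.531 and 1.14 RPKM in the fibroblasts, against 29.7, 122, 82.3 and 125 RPKM in the ESCs (-5.38, SE 0.45, adjusted p = 8.2e-06), with ESC line 2 below the other 3 lines. Dnmt3b and Dnmt3a, the enzymes of new methylation, fell, with differences of -3.02 and -1.57, and the maintenance enzyme Dnmt1 fell by 1.51. Uhrf1, which brings Dnmt1 to replicated DNA, read 31.4, 16 and 24 RPKM in the fibroblasts, against 209, 193, 255 and 344 RPKM in the ESCs (-3.35, SE 0.25, adjusted p = 4.6e-06). Each of these genes was lower in every fibroblast library than in any ESC line. Of the TET dioxygenases, which oxidise methylcytosine, Tet1 and Tet2 fell, with differences of -3.52 and -2.93, and Tet3 rose by 0.77 (adjusted p = 0.018, and 0.069 without the 2i MEF). Mbd2, a reader of methylated DNA, rose: it read 82.6, 70.3 and 87.6 RPKM in the fibroblasts, against 5.34, 8.45, 15.7 and 13.3 RPKM in the ESCs (2.88, SE 0.31, adjusted p = 3.5e-05). Zfp57 and Trim28, which keep methylation at imprinted control regions, fell, with differences of -3.67 and -2.70.

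Germline genes whose promoters are known to be methylated in somatic cells were read out next, as a list taken with earlier results of these libraries known. Of 21 tested, of 25 autosomal, 16 fell (76.2%) in fibroblasts and 0 rose, beside 41.2% and 30.8% of all tested genes. The median difference of the list was -2.07. Members under 1 RPKM in all fibroblasts passed the filter through the ESCs alone, so a rise was hardly possible for them. The absence of rises therefore adds no support. Fewer genes of the list, 17, reached the threshold for testing without ESC line 2 or without ESC line 15. The list median was then -3.91 or -3.60. Many such promoters are known to carry the E-box CACGTG, a site of MAX and its partners. In the 250 bases before the gene start it was found in 12 of the 22 list members with a promoter among those searched (54.5%). The share was 8.57% of the promoters of 9561 tested genes. Stretches of 3 called genes are shown because they hold it, in capitals (RefSeq, GRCm38.p6; Mael chr1:166238917-166238994, minus strand; Sycp3 chr10:88459478-88459586, plus strand; Fkbp6 chr5:135350045-135350190, minus strand).
Mael: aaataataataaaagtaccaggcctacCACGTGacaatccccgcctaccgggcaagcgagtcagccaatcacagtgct
Sycp3: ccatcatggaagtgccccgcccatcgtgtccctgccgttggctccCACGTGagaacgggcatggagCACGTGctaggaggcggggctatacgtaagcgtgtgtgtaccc
Fkbp6: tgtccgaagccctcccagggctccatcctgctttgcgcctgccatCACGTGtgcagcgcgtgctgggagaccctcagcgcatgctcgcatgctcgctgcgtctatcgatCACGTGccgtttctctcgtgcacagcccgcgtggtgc

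Fkbp6, which acts in the piRNA pathway of the testis, read 0, 0.157 and 0.399 RPKM in the fibroblasts, against 43.3, 55.1, 13.6 and 8.12 RPKM in the ESCs (-4.35, SE 0.58, adjusted p = 1.4e-04). Sycp3, a component of the meiotic chromosome axis, read 0.459, 1.05 and 1.09 RPKM in the fibroblasts, against 2.49, 10.1, 11.1 and 6.52 RPKM in the ESCs (-2.07, SE 0.41, adjusted p = 0.0015), and Mael, another piRNA factor, read 0, 0 and 0.046 RPKM in the fibroblasts, against 1.23, 3.13, 2.06 and 1.75 RPKM in the ESCs. Every fibroblast library was below every ESC line for all 3 genes. Dazl, an RNA-binding protein of germ cells, read 0, 0.0143 and 0.0226 RPKM in the fibroblasts, against 70.8, 178, 9.62 and 4.3 RPKM in the ESCs, with both XX lines above both XY lines (-4.85, SE 1.05, adjusted p = 0.0027). Sohlh2, a germ cell transcription factor, and Hormad1, a meiotic axis protein listed at 0 in every fibroblast library, showed the same order among the ESCs, at 75.4, 108, 17.9 and 8.33 RPKM and 33.9, 63.4, 13.3 and 7.76 RPKM. Tex19.1, which protects against retrotransposons, fell by 5.89. Rpl10l, a testis ribosomal protein gene listed at 0 in every fibroblast library, read 210.5, 208, 157 and 155 RPKM in the ESCs; it is close in sequence to X-linked Rpl10, and its reads are uncertain for that reason.

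Polycomb and associated subunits, which silence developmental genes, fell for 12 (54.5%) and rose for 7 (31.8%) of 22, beside 41.2% and 30.8% of all tested genes. Cbx7, the chromobox subunit of ESCs, read 0.513, 0.588 and 0.582 RPKM in the fibroblasts, against 57.7, 51.8, 84.2 and 88.5 RPKM in the ESCs (-5.48, SE 0.21, adjusted p = 1.2e-07). Paralogs of the Phc subunit split: Phc1 read 8.3, 6.84 and 8.91 RPKM in the fibroblasts, against 72.2, 55.8, 107 and 126 RPKM in the ESCs, while Phc2 read 72.3, 69.6 and 67.1 RPKM in the fibroblasts, against 19.9, 15, 17.5 and 16.6 RPKM in the ESCs. Phc2 was the higher of the pair in every fibroblast library and Phc1 in every ESC line. Jarid2 and Mtf2, which recruit the methyltransferase complex, and Ezh2, its enzyme, fell, with differences of -3.55, -3.40 and -2.74. BAF chromatin remodeller subunits showed 4 rises and 8 falls among 18 tested (22.2% and 44.4%), with a median difference of -0.23, which is close to all tested genes (30.8%, 41.2% and -0.22). The paralogs Smarca2 and Smarcc2 rose by 2.72 and 2.14, and Smarcc1 and Smarcd1, subunits of the ESC form, fell, with differences of -0.90 and -2.24. The ATPase gene Smarca4 was not called, at 45.4, 42.3 and 48.6 RPKM in the fibroblasts, against 56.3, 40.2, 55.5 and 63.5 RPKM in the ESCs, and was called without ESC line 15 (-0.36, adjusted p = 0.025).

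Genes of telomere upkeep and DNA repair fell for 21 of 22 (95.5%), with none higher, beside 41.2% and 30.8% of all tested genes. The median difference of the list was -2.07. Msh6, a mismatch repair gene, read 11.5, 8.1 and 11.1 RPKM in the fibroblasts, against 193, 173, 177 and 195 RPKM in the ESCs (-4.05, SE 0.14, adjusted p = 6.9e-08). Tert, the telomerase reverse transcriptase, read 1.06, 0.775 and 0.652 RPKM in the fibroblasts, against 5.53, 6.54, 5.76 and 7.07 RPKM in the ESCs (-1.98, SE 0.18, adjusted p = 1.1e-05). The groups did not overlap for either gene, and Tert was low on both sides. Among 23 tested RNA regulators, 15 fell (65.2%) and 4 rose (17.4%), beside 41.2% and 30.8% of all tested genes. Trim71, a partner of the Lin28 pathway, fell by 4.53, and the splicing factors Mbnl1 and Mbnl2, whose low level is known to favour the ESC splicing pattern, rose: Mbnl1 read 75.7, 105 and 35.7 RPKM in the fibroblasts, against 2.4, 1.62, 2.1 and 1.6 RPKM in the ESCs (4.52, SE 0.32, adjusted p = 3.4e-06).

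Epithelial adhesion genes were mostly higher in ESCs. Of 27 tested, 24 fell (88.9%) and 1 rose (3.7%) in fibroblasts, beside 41.2% and 30.8% of all tested genes. The median difference of the list was -2.22. Cdh1, for E-cadherin, read 0.0315, 0 and 0 RPKM in the fibroblasts, against 139, 135, 167 and 137 RPKM in the ESCs (-7.17, SE 0.14, adjusted p = 6.2e-09), while Cdh2, for N-cadherin, read 75.9, 129.6 and 62.3 RPKM in the fibroblasts, against 10.5, 5.49, 6.13 and 7.96 RPKM in the ESCs (3.37, SE 0.28, adjusted p = 7.9e-06). Cdh2 was thus above Cdh1 in all 3 fibroblast libraries and below it in all 4 ESC lines. The tight junction gene Cldn4, the protease inhibitor Spint1 and the adhesion molecule Epcam fell, with differences of -5.62, -5.53 and -4.67. Dsc2, a desmosomal cadherin, was the 1 gene that rose, at 2.46, 3.76 and 1.02 RPKM in the fibroblasts, against 0.247, 0.131, 0.375 and 0.176 RPKM in the ESCs (1.39, SE 0.28, adjusted p = 0.0017).

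Of 26 genes of glucose uptake and glycolysis, 15 fell (57.7%) and 1 rose (3.85%) in fibroblasts, beside 41.2% and 30.8% of all tested genes. Slc2a3, the high-affinity glucose transporter GLUT3, read 5.33, 1.84 and 3.56 RPKM in the fibroblasts, against 620.4, 840.1, 473 and 407 RPKM in the ESCs (-7.02, SE 0.31, adjusted p = 2.2e-07), a wider gap than that of its ubiquitous relative Slc2a1 (-1.40). Ldhb, a lactate dehydrogenase subunit, fell by 3.29, and Ldha, the other subunit, was not called, at 853, 725 and 913 RPKM in the fibroblasts, against 1245, 1396, 759.6 and 756 RPKM in the ESCs, and was called with a term for XX among the ESCs (-0.27, adjusted p = 0.048). Of 25 genes of one-carbon, threonine, glycine and serine metabolism, 18 fell (72%) and 1 rose (4%). Tdh, the threonine dehydrogenase on which mouse ESCs depend, read 0, 0 and 0.195 RPKM in the fibroblasts, against 595, 449, 634 and 637 RPKM in the ESCs (-9.08, SE 0.16, adjusted p = 4.6e-09). Gldc and Amt of the glycine cleavage system fell, with differences of -4.37 and -6.14, and Phgdh, the first enzyme of serine synthesis, rose, at 170.0, 192 and 235 RPKM in the fibroblasts, against 53.7, 64.8, 59 and 47.6 RPKM in the ESCs (1.80, SE 0.15, adjusted p = 8.5e-06). Cholesterol synthesis went the other way: of 19 tested genes 14 rose (73.7%) and 0 fell, beside 30.8% and 41.2% of all tested genes. The widest rises of this list were those of Hsd17b7 and Sc5d, at 2.78 and 2.29.

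Stress genes rose for 11 (68.8%) and fell for 4 (25%) of 16, beside 30.8% and 41.2% of all tested genes. Ddit3, the stress factor CHOP, read 98, 101 and 236 RPKM in the fibroblasts, against 7.42, 30.8, 38 and 17 RPKM in the ESCs (2.68, SE 0.52, adjusted p = 0.0014), and Hspa5, the chaperone BiP of the endoplasmic reticulum, rose by 1.40. Asns, for asparagine synthetase, fell by 2.14. The 2i MEF was the highest fibroblast library for Ddit3, Hspa5 and Asns. Genes often used as internal controls did not keep 1 level: Actb read 5523, 5507 and 4555 RPKM in the fibroblasts, against 4347, 3671, 3248 and 3845 RPKM in the ESCs (0.46, SE 0.12, adjusted p = 0.0074), and Gapdh 1722, 1484 and 1587 RPKM in the fibroblasts, against 2638, 2850.4, 2898 and 2771 RPKM in the ESCs (-0.81, SE 0.09, adjusted p = 4.5e-05). After quantile normalization Gapdh was no longer called (-0.074, adjusted p = 0.42), and without MEF line 2 and ESC line 20 neither was Actb (0.34, adjusted p = 0.08). Of 15 such genes 3 rose (20%) and 9 fell (60%). The most abundant autosomal gene of the ESCs was Eef1a1, for a translation elongation factor, at 8079, 7383 and 7790.0 RPKM in the fibroblasts, against 9497, 15684, 12958 and 10540.2 RPKM in the ESCs.

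Hox genes record position along the body axis. Of 29 tested, 23 rose (79.3%) and 2 fell (6.9%), beside 30.8% and 41.2% of all tested genes. The clusters hold 39 genes, and the other 10 were below the threshold for testing. Hoxc8 read 25.6, 49.1 and 15.5 RPKM in the fibroblasts, against 0.442, 0.247, 0.14 and 0.0456 RPKM in the ESCs (4.53, SE 0.34, adjusted p = 4.2e-06), and Hoxc6, Hoxb9 and Hoxd8 rose by 4.47, 3.95 and 3.24. The 2 that fell were the most 5′ genes of cluster C, Hoxc12 and Hoxc13. Hoxc13 read 1.14, 1.09 and 0.0274 RPKM in the fibroblasts, against 6.22, 6.62, 5.65 and 5.35 RPKM in the ESCs (-2.06, SE 0.27, adjusted p = 1.3e-04), and Hoxc12 read 0.107, 0 and 0 RPKM in the fibroblasts, against 6.92, 3.05, 3.5 and 5.04 RPKM in the ESCs.

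Imprinted genes, expressed from 1 parental copy, rose for 8 (29.6%) and fell for 7 (25.9%) of 27 tested, beside 30.8% and 41.2% of all tested genes, and 12 were not called. Their median difference was 0.27, and 0.12 without ESC line 23. They held some of the widest gaps among the fibroblasts themselves. Igf2, the fetal growth factor, read 792, 309 and 14.4 RPKM in the fibroblasts, against 0.0972, 0.484, 2.36 and 1.3 RPKM in the ESCs (6.37, SE 1.12, adjusted p = 7.8e-04), and the 2i MEF stood well below both MEF lines. Grb10, a growth inhibitor, read 225, 172 and 4.38 RPKM in the fibroblasts, against 14.4, 15.7, 20.1 and 17.2 RPKM in the ESCs, and Igf2r, the receptor that clears Igf2, 61.1, 57.7 and 1.71 RPKM in the fibroblasts, against 17, 20.7, 18.7 and 12 RPKM in the ESCs. For both genes the 2i MEF lay below every ESC line and both MEF lines lay above, and neither gene was called. Without the 2i MEF both were called higher in fibroblasts, Grb10 by 3.48 (adjusted p = 3.5e-06) and Igf2r by 1.76 (adjusted p = 2.3e-04). Mest showed the opposite order, at 12.8, 7.69 and 91.5 RPKM in the fibroblasts, against 26.6, 19.4, 17.1 and 22.7 RPKM in the ESCs, and was not called. Without the 2i MEF, Mest was lower in fibroblasts (-1.02, adjusted p = 0.0078). With 1 library of the 2i MEF, its difference from the MEF lines has no replicate check. Snrpn fell by 2.11 and Gnas rose by 2.55, in each case with all 3 fibroblast libraries on the same side of all ESC lines.

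The 2i MEF was set against genes called from the MEF lines and the ESCs alone. Of the 3634 genes called higher without it, it read above every ESC line in 3452 (95%), and of the 4874 called lower it read below every ESC line in 4724 (96.9%). The calls rest on the same ESC lines, so part of these shares is built in. Within line 15, the difference between its 2i MEF and its 2i ESC library on the log2 scale was 10.85 for Col1a1, 10.86 for Acta2, -10.50 for Pou5f1 and -8.82 for Nanog, single values with no error of their own. Beyond the imprinted genes, the called genes with the widest range among the fibroblasts included Il1rn, an interleukin 1 antagonist, at 30.3, 0.32 and 129 RPKM in the fibroblasts and listed at 0 in the ESCs, S100a7a at 26.8, 81.6 and 0.172 RPKM, and Mgp, an inhibitor of calcification, at 86.3, 13.4 and 305 RPKM. The 3 fibroblast libraries thus did not share 1 order across these genes: the 2i MEF was highest for Il1rn and Mgp and lowest for S100a7a. Among markers of other cell types, Krt14, a keratin of basal epidermis, read 18.4, 0.212 and 4.69 RPKM in the fibroblasts, against 0, 0, 0.077 and 0 RPKM in the ESCs, and Fabp4, a fatty acid carrier of adipocytes, 9.87, 2.09 and 23.7 RPKM in the fibroblasts, against 0, 0.0701, 0.204 and 0 RPKM in the ESCs. Of 6 keratinocyte markers, 1, 0 and 1 reached 1 RPKM in the fibroblast libraries. The 6 adipocyte markers summed to 100.4, 71.8 and 54.8 RPKM there, another order than that of Fabp4. The skeletal muscle markers summed to 1.44 to 2.45 RPKM in the fibroblasts, against 0.437 to 2.09 RPKM in the ESCs.

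The XX and XY lines were compared as their labels give them: all 183 Y-linked loci of the table were listed at 0 in all 10 libraries of the cross, so the Y-linked genes gave no check of the sex labels. In the same data, with 4 residual degrees of freedom, 182 of 12629 genes (1.44%) were called between the 2 XX and the 2 XY ESC lines, 96 higher and 86 lower in XX. Dazl was higher in XX lines, at 70.8 and 178 RPKM in XX lines and 9.62 and 4.3 RPKM in XY lines (3.92, SE 0.46, adjusted p = 0.017), as were Pramel7, a PRAME family gene active in the naive embryo, at 73 and 44.5 RPKM in XX lines and 4.73 and 6.56 RPKM in XY lines (3.14), and Ccnd2, at 15.3 and 41.6 RPKM in XX lines and 1.12 and 0.535 RPKM in XY lines (3.87). Phlda2, an imprinted growth inhibitor of placenta, was lower in XX lines, at 1.75 and 1.93 RPKM in XX lines and 28.6 and 27.2 RPKM in XY lines (-3.35, SE 0.22, adjusted p = 0.0066), and so were Atp2a3, a calcium pump (-3.05), and Gbx2, a homeobox gene of the naive circuit, at 2.89 and 1.53 RPKM in XX lines and 12.8 and 20.1 RPKM in XY lines (-2.44). The XX and XY lines did not overlap for these genes, which were picked for their differences in this contrast, so this adds no support. Pgk1-rs7 had the widest difference (5.61), but this locus is close in sequence to X-linked Pgk1, so its reads are uncertain. The number of calls fell away when any ESC line was left out: 0 genes were called without line 2 or without line 20, 10 without line 15, 6 without line 23, and 43 without MEF line 2, which enters the estimate of the spread, while 2022 genes had an unadjusted p under 0.05 with all lines. In all 3 fibroblast libraries Dazl, Pramel7, Phlda2, Atp2a3 and Gbx2 were below 1 RPKM, while Ccnd2 read 170.4, 189 and 118 RPKM in the fibroblasts, above all 4 ESC lines.

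**Figure D5:**
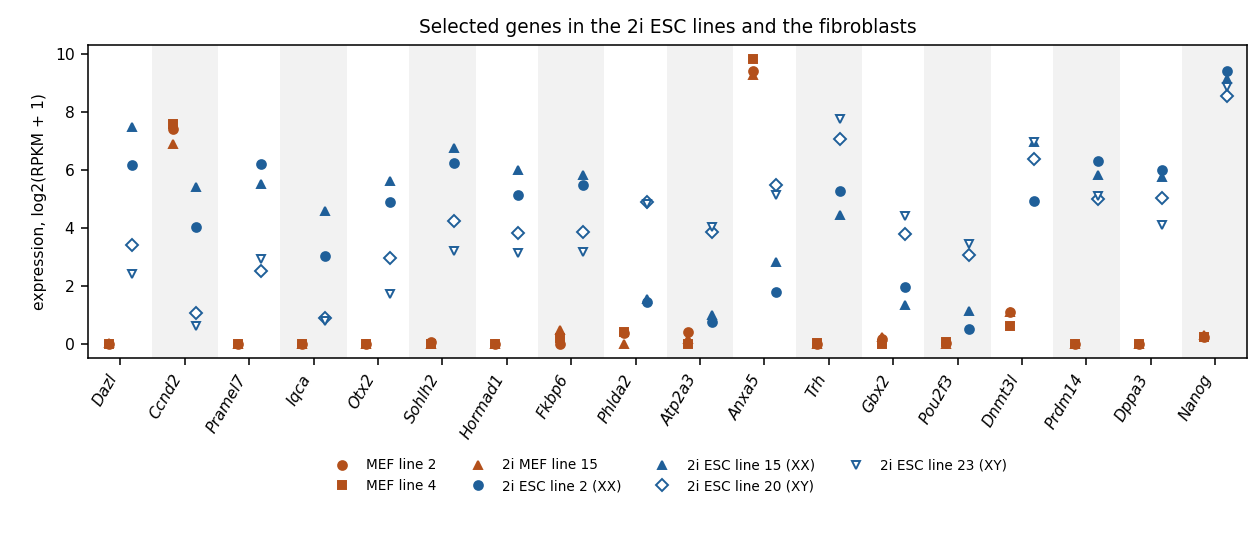
Expression as log2(RPKM + 1) of 18 genes, 1 point per library, fibroblasts in orange to the left and 2i ESCs in blue to the right of each gene name; filled blue marks are XX lines and open blue marks XY lines. Both XX lines lay above both XY lines for Dazl, Ccnd2, Pramel7 and Otx2, and below them for Phlda2, Atp2a3 and Gbx2.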

How the data were processed

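RNA was extracted with RNeasy and libraries were made with a stranded mRNA kit, per the labels' protocols. The authors deposited RPKM per gene. Per the submitters' processing notes, TopHat2 2.1.0, Bowtie2 2.2.5, cutadapt 1.9.1, Cufflinks 2.2.1 and mm10 were used; reads of the MSM/Ms copy were thus measured on a genome of another strain, which can lower genes rich in variants. Read totals per library were not used here.

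Values were taken as log2(RPKM + 1), a pseudocount of 1. Autosomal genes that reached 1 RPKM in 2 or more of the 7 libraries were fitted with limma 3.58.1 in R 4.3.3 (empirical Bayes with trend, 5 residual degrees of freedom) and adjusted with the Benjamini-Hochberg method; the script was tested on simulated data. XX and XY ESC lines were compared in the same way. A gene whose libraries were all listed at 0 in a group is given without a fold. Relative depth came from the ratio of values under 0.2 RPKM.

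The members and gene lists were chosen with earlier results of these data known. Genes named in the text are marker and checked genes, up to 4 called members per list and direction, the 15 most changed each way, the 10 most abundant, the 8 with the widest range in each group and the 6 most changed each way between XX and XY. Others, mostly genes not called and relatives of named genes, were chosen after their values were seen. Some genes covered by this rule are not reported here. Promoters (RefSeq, GRCm38.p6) were matched by symbol, and those on chromosome 18 were left out. Alternatives were other pseudocounts (0.1 and 4 RPKM), filters, scalings, model terms and leaving out libraries.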

Additional observations from a re-analysis of the deposited data

Results flagged for a closer look

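Among the 4 ESC libraries, 1 value stood apart from the other 3 in 29 of 186 genes named in the text. On the log2(RPKM + 1) scale, its gap to the nearest of them took up more of the whole range than Dixon's test allows at 95%. Chance flags about 1 in 20 such groups, but the share found here is not read against that: the genes were partly named for their range among the ESCs, and in 5 of them the other 3 lines were listed at 0, where any value stands apart. In 11 of the 29 the ESC lines spanned at least 1 log2 unit. ESC line 20 was the library that stood apart in 22 of them, each time as the highest. In matrix and matrix-processing genes it read 16.7 RPKM for Col1a1, 9.31 RPKM for Col1a2, 3.87 RPKM for Col3a1, 11 RPKM for Lox, 0.949 RPKM for Loxl1, 0.541 RPKM for Ctsk and 7.53 RPKM for Timp2. In genes of the contractile apparatus and cell surface it read 30.8 RPKM for Acta2, 19.4 RPKM for Tagln, 3.78 RPKM for S100a4, 2.33 RPKM for Cav1 and 0.565 RPKM for Cdh11. In regulators and signals it read 0.559 RPKM for Prrx1, 0.846 RPKM for Tgfb3, 1.33 RPKM for Inhba, 0.233 RPKM for Grem1, 0.328 RPKM for Wnt5a, 0.0809 RPKM for Dkk2 and 0.811 RPKM for Ccl2. It also read 0.077 RPKM for Krt14. For 2 genes that were higher in ESCs than in fibroblasts, Cdh1 and Nid2, it read 167 and 101 RPKM.

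ESC lines 2, 15 and 23 stood apart in 3, 3 and 1 genes. ESC line 2 was highest for Mycn, at 80.1 RPKM, for Zeb1, at 7.49 RPKM, and for S100a7a, at 0.0683 RPKM. ESC line 15 was lowest for Etv5, at 105 RPKM, and for Trim71, at 13.6 RPKM, and was the only ESC line with Tyrobp, at 0.134 RPKM. ESC line 23 was lowest for Cdkn2b, at 2.04 RPKM.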

How the results depend on the processing

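Under the other scalings, pseudocounts, filters and model terms on all 7 libraries or more, 2985 to 4251 genes were higher and 4842 to 5566 lower in fibroblasts, within 1.5 times of 3896 and 5201. Leaving out 1 library at a time gave 3281 to 3826 higher and 4795 to 5271 lower genes. A test against a change of 1 log2 unit in place of 0 called 1534 higher and 1699 lower genes, fewer by construction. The number of genes called between XX and XY ESC lines, 182, became 104 with a pseudocount of 0.1 RPKM, 116 with all 10 libraries of the cross and 459 with X-linked genes included, and 0 to 189 without 1 library; the cause of the other shifts was not tested. For this contrast the test against 1 log2 unit was not run, and a term for XX is the contrast itself.

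Of 176 named genes called between fibroblasts and ESCs, 8 lost the call under at least 1 of the alternatives: Actb, Atp2a3, Eef1a1, Etv4, Gapdh, Phlda2, Tet3 and Tyrobp. Of 14 named genes not called, 8 gained a call under 1 alternative: Eng, Fbln1 and Klf4 without MEF line 4, Grb10, Igf2r and Spp1 without the 2i MEF, Smarca4 without ESC line 15 and Ldha with a term for XX among the ESCs. Mest, whose sign also changed, was called without the 2i MEF. Differences that changed sign all belonged to genes not called. After quantile normalization they were 0.091 for Cnn3, 0.049 for Ldha and 0.054 for Trp53bp1, which was 0.073 after scaling to 1 median. Mest was -0.019 with a pseudocount of 0.1 RPKM, and Igf2r -0.45 without MEF line 2 and ESC line 20. Leaving out 1 library at a time gave -0.50 to 1.76 for Igf2r, -0.94 to 0.14 for Klf4, -1.02 to 0.69 for Mest, -1.86 to 0.19 for Pgk1-rs7, -1.82 to 0.69 for Spp1 and -0.18 to 0.14 for Trp53bp1. The median of the Wnt list was -0.040 to 0.35, turning negative without MEF line 2.

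No paired analysis was possible because only line 15 gave a library to both groups, and the number 2 that a MEF line and an ESC line share names separate lines. The deposited values carry no read counts, so the depth behind low values is known only in relative terms, and genes listed at 0 have no upper limit. Simulated data for the comparison of fibroblasts with 2i ESCs held 100 genes changed by 1 log2 unit and 100 changed by 2, among 12629. The changed genes were drawn from those with an ESC mean above 2 on the log2(RPKM + 1) scale, so genes low in ESCs were not covered. In the right direction, 49 of those changed by 1 log2 unit and 92 of those changed by 2 were called. Far more genes were called in the real data, which makes the adjusted threshold less strict, so these shares do not carry over to it.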

Other observations

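Some marker lists of other cell types were not near 0, and they are given as values. The 9 primitive endoderm markers summed to 50.2 to 94.1 RPKM in the fibroblasts, against 2.73 to 5.13 RPKM in the ESCs; 2 of them, Dab2 and Gata6, reached 1 RPKM in the fibroblasts, Dab2 giving most of the sum, and 4 were at 0 in each fibroblast library. The 8 endothelial markers summed to 8.32 to 13 RPKM in the fibroblasts, against 27.6 to 53 RPKM in the ESCs, and 6 neural crest and glia markers summed to 2.53 to 8.44 RPKM in the fibroblasts, against 12.6 to 28.5 RPKM in the ESCs. The 6 adipocyte markers summed to 54.8 to 100.4 RPKM in the fibroblasts, against 6.15 to 15.0 RPKM in the ESCs. The 7 cartilage and bone markers summed to 0.407 to 13.2 RPKM in the fibroblasts, against 103.9 to 156 RPKM in the ESCs, and 6 germ cell markers summed to 2.27 to 4.33 RPKM in the fibroblasts, against 32.2 to 252 RPKM in the ESCs. In each ESC line 3 to 4 of the cartilage and bone markers and 2 of the neural crest and glia markers reached 1 RPKM. Foxd3 of the neural crest list is also in the core pluripotency list. Of the germ cell sums in ESC lines 2, 15, 20 and 23, Dazl gave 70.8, 178, 9.62 and 4.3 RPKM. A sum thus does not identify a cell type. The part of these marker lists in the results was not tested.

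Cholesterol synthesis genes, 14 of 19 tested of which rose in fibroblasts, often carried the letters CCAAT, on either strand, in the 250 bases before the gene start. Of the 13 with a promoter among those searched, 12 (92.3%) held them, as did 36.6% of the promoters of 9561 tested genes. Among cell cycle genes, most of which fell, 17 of 24 (70.8%) held them. Both counts describe letters and were not tested.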
